A study of Rattus norvegicus with 21 samples.

Results

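The comparison set primary intrahepatic cholangiocarcinomas of male young adult Fischer 344 rats collected 25 days after inoculation of tumour cells (3 arrays, from rats 7, 8 and 9) against those collected at day 15 (3 arrays, from rats 4, 5 and 6). All 6 arrays that the labels give as BDEneu tumour at day 15 or day 25 were used, out of 21 arrays from 9 rats in the whole series, and each array measured 14218 named genes. BDEneu is a rat bile duct epithelial line transformed by the neu oncogene, the activated form of Erbb2, so every tumour came from the same line and no untransformed bile duct was arrayed. The animals were inoculated at the same time and each gave a tumour at only 1 day, so the 2 days were compared between different rats and not within an animal. The other arrays were used for context only, namely 3 primary tumours of day 10 (rats 1 to 3), 3 metastases of day 25 (rats 7 to 9) and the right liver lobe, labelled normal, of all 9 rats. The day 25 livers are called day 25 in their titles but day 55 in their descriptions, and were taken as day 25. Rep 1, rep 2 and rep 3 are the labels' replicate numbers within a group, so that day 25 rep 1 is rat 7.

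Cholangiocarcinoma is a cancer of bile duct epithelium that grows inside a dense stroma of myofibroblasts and collagen, with macrophages, neutrophils and lymphocytes in and around it. Interferons induce a shared set of genes through STAT and IRF factors, which bind the interferon-stimulated response element in their promoters, and many of the induced proteins restrict viruses or prepare antigens for T cells. MHC class II molecules present antigen to helper T cells and are made mainly by dendritic cells, macrophages and B cells, under the control of the regulator Ciita. Dividing cells switch on DNA replication genes such as the Mcm helicase subunits through E2F factors.

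No gene passed the test between day 25 and day 15. Of the 14218 genes, 0 (0%) had a limma adjusted p under 0.05, and the smallest adjusted p was 0.073. With the 6 tumour arrays alone the smallest was 0.74 (limma). Each SE given below pools the spread of all 7 groups, so it can be smaller or larger than these 6 arrays alone would give. At an unadjusted p under 0.05 there were 1202 genes, 548 higher (3.85% of all genes) and 654 lower (4.6%) at day 25. The split depended on the scaling, since 45.6% of such genes were higher with the deposited values, against 59.3% after a further quantile normalization and 54.7% after centring each array on its median. A gene is called separated here when all 3 day 25 arrays lay above, or all 3 lay below, all 3 day 15 arrays. There were 782 genes separated with day 25 higher (5.5%) and 921 with day 25 lower (6.48%), against 963 higher and 675 lower after quantile normalization. The mean differed by at least 2-fold for 40 genes higher (0.281%) and 228 genes lower (1.6%) at day 25, and 18 and 39 of these were also separated. The median difference over all genes was -0.01 on the log2 scale, with a 1st percentile of -1.13 and a 99th of 0.68. With 3 arrays against 3 the smallest two-sided exact permutation p for a single gene is 0.1, and missing the threshold does not show that levels were alike.

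**Figure D1:**
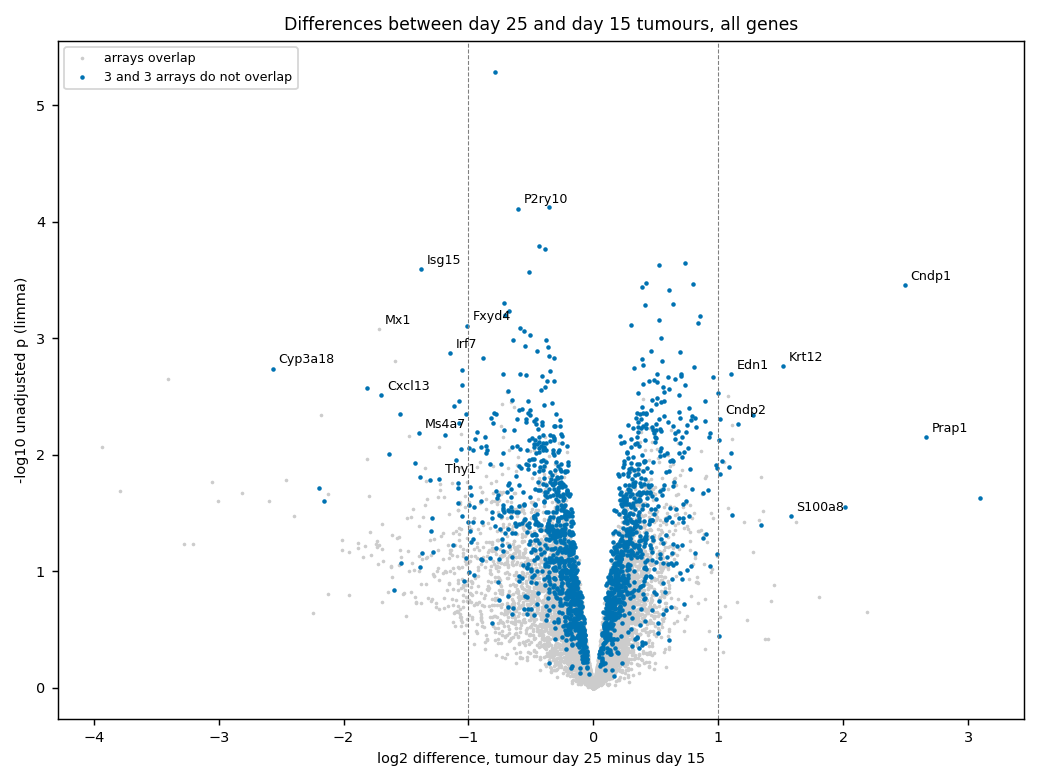
Each point is 1 of 14218 genes, with the log2 difference of day 25 minus day 15 tumours on the x axis and the unadjusted limma p as -log10 on the y axis. Blue points are genes whose 3 and 3 arrays do not overlap, dashed lines mark 2-fold, and no gene passed an adjusted p of 0.05; Cndp1 and Prap1 lie far to the right and Isg15, Irf7 and Cxcl13 to the left.

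Some arrays stood apart before any gene was compared. Day 25 rep 1 correlated with the other day 25 arrays at 0.953 and 0.929, whereas those 2 correlated with each other at 0.984 and the day 15 arrays with each other at 0.958 to 0.986. The signal of 19 hepatocyte genes, as the median percent of the same rat's liver, was 18.6, 48.6 and 12.5 in the day 15 tumours and 2.45, 29.1 and 30.4 in the day 25 tumours, so day 25 rep 1 held the least. That array also read 10.59 for Acta1, the skeletal muscle actin, against 4.11 to 4.49 in the other 5. Pancreatic acinar genes averaged 8.18 in day 15 rep 2 and 8.07 in day 25 rep 3 and 4.97 to 5.20 in the other 4. Without day 25 rep 1 the genes at least 2-fold lower numbered 37 in place of 228, and with the hepatocyte signal as a covariate they numbered 39. That count was 123 without day 15 rep 2, 428 without day 15 rep 3 and 532 without day 25 rep 3. The genes at least 2-fold higher numbered 40 without day 25 rep 1, 35 with the covariate, 83 without day 15 rep 3 and 100 without day 25 rep 3. Of 118 genes whose differences were followed through the fits, 64 came closer to 0 by over 1.5 times when 1 array was left out, 46 of them without day 25 rep 1. In RNA from whole tissue pieces, fewer cells of a type and less RNA per cell cannot be told apart.

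The tumours carried the markers of their label at both days. Krt19, a keratin of bile duct cells, was 12.37 ± 0.22 at day 15 and 12.12 ± 0.15 at day 25 (mean log2 ± SD, n = 3), with 6.20 ± 0.41 and 6.21 ± 1.42 in the livers of those days. Of 17 biliary epithelium genes measured, 0 were separated, and their median difference was 0.06. Tspan8, a tetraspanin of epithelial tumours and the biliary gene with the highest signal, was 13.23 ± 0.20 and 13.38 ± 0.26. Erbb2, whose activated form transformed the line, read 9.03, 8.72 and 10.02 at day 15 and 10.73, 10.00 and 9.36 at day 25. The ranges overlapped, because day 15 rep 3 was above day 25 rep 3, and the difference was 0.77 (SE 0.37, limma adjusted p = 0.61), or 0.43 without day 25 rep 1, 0.51 without day 15 rep 2 and 0.39 with the hepatocyte signal as a covariate. In the livers Erbb2 averaged 5.28 and 5.30.

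Among the genes higher at day 25, the carnosine dipeptidase Cndp1, which splits the dipeptide carnosine, came first. It is 1 of 7 genes that an earlier reading of the same day 25 arrays had singled out. It read 9.38, 8.70 and 11.08 at day 15 and 12.90, 12.17 and 11.57 at day 25. All day 25 tumours were above all day 15 tumours, and day 15 rep 3 was the closest to them. The difference was 2.49 on the log2 scale, or 5.63-fold (SE 0.56, limma adjusted p = 0.39). Over the fits that left out 1 of the 6 arrays in turn the adjusted p ran from 0.0497, with a difference of 3.17 without day 15 rep 3, to 1, with 2.15 without day 25 rep 1. The day 10 tumours averaged 8.77 and the metastases 11.81, while livers averaged 6.11 at day 15 and 6.95 at day 25. The change in tumour exceeded that in liver by 1.65, with an adjusted p of 0.55 for the difference between tissues (limma). Cndp2, the cytosolic dipeptidase of the same family, read 9.94, 9.83 and 10.37 at day 15 and 11.84, 10.83 and 10.50 at day 25. It was separated too, with a difference of 1.01 (SE 0.31, limma adjusted p = 0.50) that was 0.62 without day 25 rep 1. Of the 9 carnosine genes measured, 2 were separated upwards, against 5.5% of all genes, and 1 downwards, against 6.48%. The latter was the lysosomal peptide carrier Slc15a3 (-0.62, SE 0.23, or -0.39 without day 25 rep 1), and the list's median was 0.02. Because Cndp1 had been singled out on the same day 25 arrays, its values and this list's upward count are no independent evidence.

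Other separated genes with at least 2-fold higher means were of mixed kinds. Prap1, a secreted proline-rich protein of epithelia, read 5.87, 5.88 and 6.32 at day 15 and 9.38, 7.55 and 9.12 at day 25 (difference 2.66, SE 0.87). Krt12, a keratin best known from the cornea, read 5.94, 5.85 and 6.15 and then 8.61, 7.28 and 6.60 (1.52, SE 0.41). Its SD was 0.15 and 1.02 in these tumours but 0.10 and 0.08 in the livers of those days, which the SE pools. Edn1, the vasoconstrictor peptide endothelin, read 7.80, 7.23 and 7.63 and then 9.22, 8.37 and 8.39 (1.10, SE 0.30). In these genes the day 15 tumours lay close together and the day 25 tumours spread more widely, and day 25 rep 1 was the highest each time. Without it the differences were 2.32 for Prap1, 0.96 for Krt12 and 0.82 for Edn1, and those of Glrx and Rab3ip, given next, were 0.83 and 0.68. The glutaredoxin Glrx, which reduces protein disulphides with glutathione, differed by 1.28, Rab3ip, an activator of the vesicle GTPase Rab8, by 1.15, and the elongation factor gene Tcea1 by 1.03. A second probe set for Rab3ip gave 0.47. Uhrf1, which helps to copy DNA methylation at replication, differed by 1.00, and Alas2, the first enzyme of haem synthesis in red cell precursors, by 1.10. The limma adjusted p of these 8 genes was 0.50 to 0.52.

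**Figure D2:**
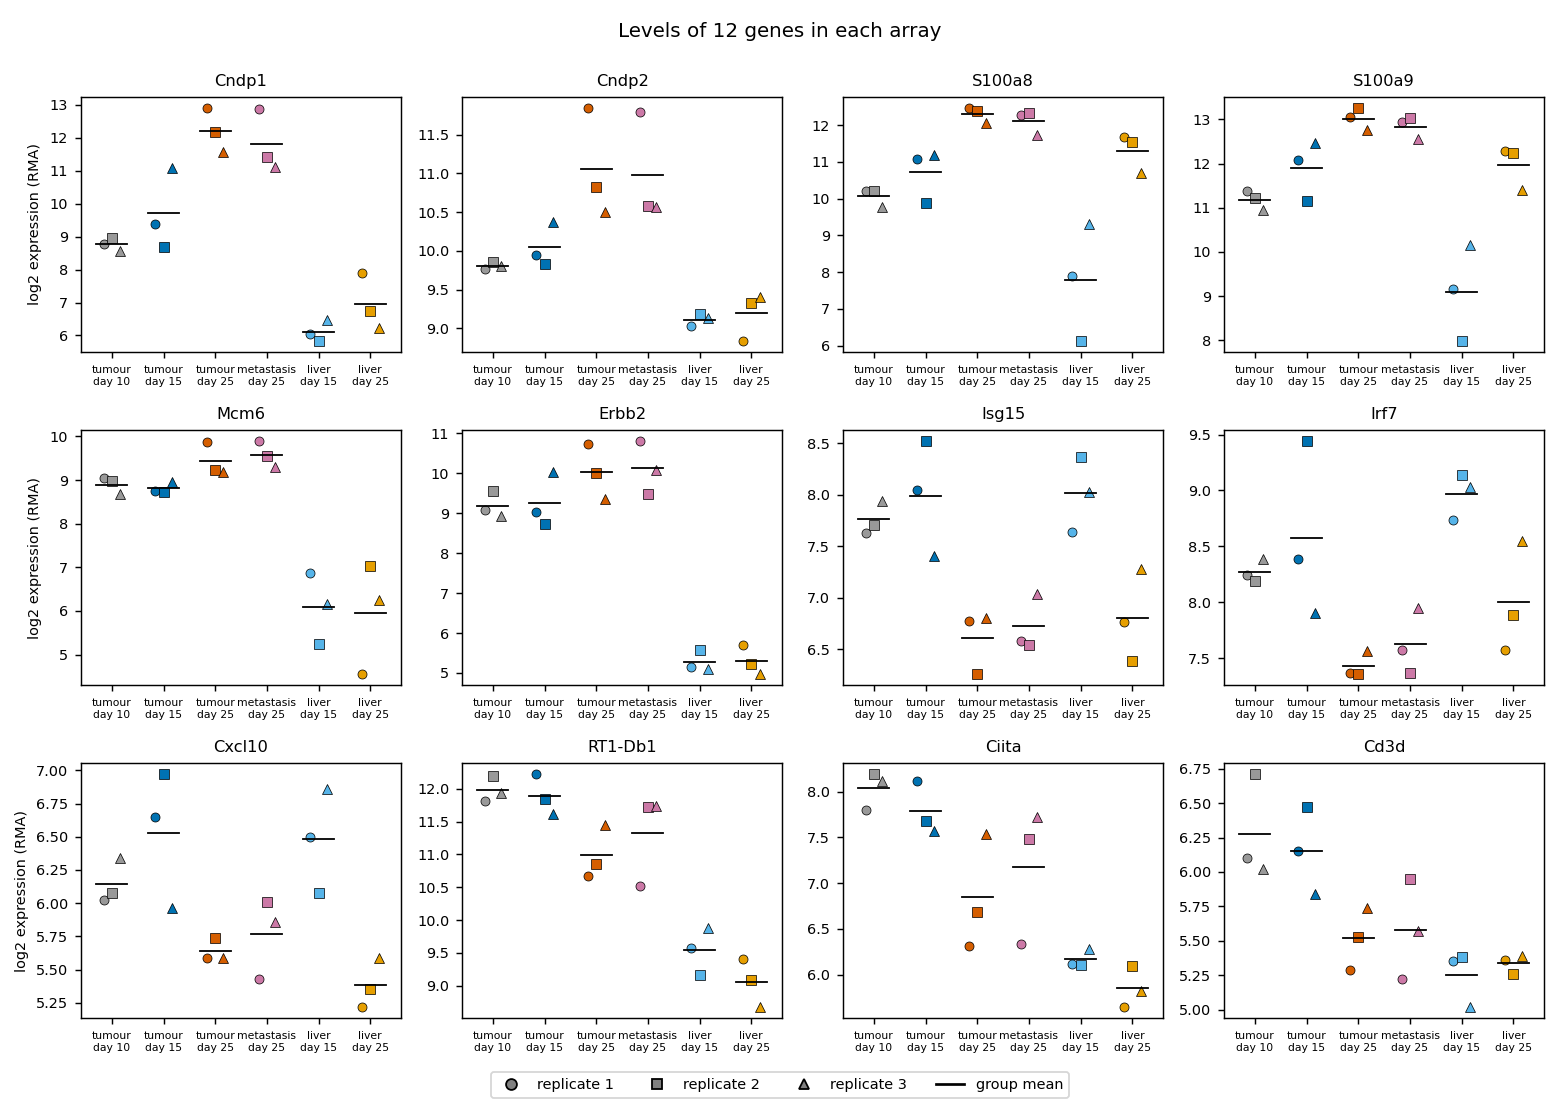
Log2 expression of 12 genes in every tumour, metastasis and liver array of the groups shown; symbols mark the replicate number and lines the group mean. Cndp1, S100a8 and Mcm6 were higher in every day 25 tumour than in any day 15 tumour, Isg15, Irf7, Cxcl10 and RT1-Db1 were lower in every one, and Erbb2 overlapped.

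Interferon response genes mostly had lower means at day 25, 22 of the 27 measured. Isg15, a ubiquitin-like protein that interferon induces, read 8.05, 8.52 and 7.40 at day 15 and 6.77, 6.26 and 6.80 at day 25. Every day 25 tumour was below every day 15 tumour, and the difference of -1.38 corresponded to 2.60-fold (SE 0.30, limma adjusted p = 0.39). The tumours of day 10 averaged 7.76 and the metastases 6.72. Irf7, the factor that amplifies interferon production, read 8.39, 9.44 and 7.90 and then 7.37, 7.36 and 7.56 (-1.15, SE 0.30). Its 3 day 25 values lay within a narrow band below the day 15 values, and the difference was -0.72 without day 15 rep 2, its highest array. Ifit2 (-1.05) and Ifit3 (-1.06), which bind viral RNA, and Cxcl10 (-0.89), which attracts activated T cells, were separated in the same direction, though Ifit3 was -0.66 without day 15 rep 3. Of the 27 interferon genes measured, 10 were separated with day 25 lower, against 6.48% of all genes, and 0 with day 25 higher. At least 2-fold lower were 8, against 1.6% of all genes, 1 was at least 2-fold higher, against 0.281%, and 0 passed the test. The separated members also included Ifi44, the signal transducer Stat2, Oasl, the peptide transporter Tap1 and Oas1b, with differences from -0.73 to -0.44. Second probe sets gave -0.05 for Tap1, -0.46 for Stat2 and -0.75 for Ifit2.

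The list was not uniform. Mx1, a GTPase against viruses, had the largest difference in it, -1.72 (SE 0.42, adjusted p = 0.46, limma), but its 3 and 3 arrays overlapped, since day 15 rep 3 read 6.07 and day 25 rep 3 read 6.14. Cxcl9, which like Cxcl10 attracts activated T cells, was -1.59 and overlapped through the same 2 arrays. Without day 15 rep 3, 22 of the 27 genes were separated with day 25 lower, where all genes reached 15.4%, and Mx1 was -2.26 with an adjusted p of 0.0497 (limma), the lowest over the fits that left out 1 array in turn, whose highest was 1. Rsad2, the antiviral enzyme viperin, stood opposite to the list at 7.16, 7.71 and 6.92 on day 15 and 9.98, 8.53 and 7.11 on day 25, a difference of 1.27 with overlap, or 0.56 without day 25 rep 1. Mx1, Cxcl9 and Rsad2 were picked after their values were seen. The median of the list was -0.73, with -0.55 without day 25 rep 1 and -0.50 with the hepatocyte signal as a covariate, while the median of all genes was -0.01.

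The right liver lobes of the same rats, labelled normal, also had lower levels of this list at day 25. Isg15 fell in liver from 8.01 ± 0.37 to 6.81 ± 0.45 (mean log2 ± SD, n = 3, limma adjusted p = 0.045). Its change in tumour and in liver differed by -0.18 (adjusted p = 0.93, limma). Tap1, Cxcl10, Usp18 and Mx2 fell in liver as well, so that 5 of 27 passed the test there, against 2.2% of all genes called in either direction (117 higher, 196 lower). The liver median of the list was -0.72. Across all genes 0 (0%) differed between the tissues in their change from day 15 to day 25 at an adjusted p under 0.05, with a smallest adjusted p of 0.063 and 1283 genes at an unadjusted p under 0.05.

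The promoters of 3 of the separated interferon genes show the element named above. Each window runs from 250 bases before to 50 bases after the gene start (RefSeq, GRCr8), 5′ to 3′ on the gene's strand, with capitals marking every match to GAAANNGAAA or, on the other strand, TTTCNNTTTC. Irf7 lies at chr1:205799974-205800273 (minus strand), Ifit3 at chr1:241527076-241527375 (plus strand) and Cxcl10 at chr14:15988816-15989115 (plus strand).
Irf7: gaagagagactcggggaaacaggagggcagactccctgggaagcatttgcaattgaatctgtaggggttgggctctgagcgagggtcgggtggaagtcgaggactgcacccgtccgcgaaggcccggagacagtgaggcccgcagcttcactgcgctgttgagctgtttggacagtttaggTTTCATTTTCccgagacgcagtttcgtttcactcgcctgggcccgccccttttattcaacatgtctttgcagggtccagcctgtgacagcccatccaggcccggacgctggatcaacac
Ifit3: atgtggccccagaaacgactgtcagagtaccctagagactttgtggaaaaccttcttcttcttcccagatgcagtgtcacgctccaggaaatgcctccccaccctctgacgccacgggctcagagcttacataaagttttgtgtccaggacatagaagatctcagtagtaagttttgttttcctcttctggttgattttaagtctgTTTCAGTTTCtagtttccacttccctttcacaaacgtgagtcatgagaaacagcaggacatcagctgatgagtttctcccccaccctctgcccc
Cxcl10: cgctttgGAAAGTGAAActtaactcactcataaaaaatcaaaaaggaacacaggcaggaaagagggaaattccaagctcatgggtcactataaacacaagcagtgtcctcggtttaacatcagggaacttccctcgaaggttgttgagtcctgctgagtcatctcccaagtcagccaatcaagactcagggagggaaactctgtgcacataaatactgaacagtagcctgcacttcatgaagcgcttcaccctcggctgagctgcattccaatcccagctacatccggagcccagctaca
Of the 27 genes 20 had a window in the table and 12 of these held a match (60.0%), against 1312 of 33469 windows overall (3.92%). Matches were in 6 of the 8 separated members with a window and in 6 of the 12 others. A match is a string of letters and not a measured binding site.

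All 8 MHC class II genes had lower means at day 25. RT1-Db1, a class II beta chain, read 12.22, 11.85 and 11.62 at day 15 and 10.67, 10.85 and 11.45 at day 25, a difference of -0.90 (SE 0.30, limma adjusted p = 0.50). Ciita, the regulator of the group, read 8.12, 7.68 and 7.57 and then 6.31, 6.69 and 7.54, a difference of -0.95 (SE 0.31). In both genes day 25 rep 3 came nearly up to day 15 rep 3, while day 25 rep 1 was the lowest. RT1-Bb (-0.74), RT1-Da (-0.66) and the invariant chain Cd74 (-0.66), which guards the binding groove during transport, were separated as well, so 5 of 8 were separated with day 25 lower, against 6.48% of all genes, and 0 passed the test. RT1-Ba (-0.80) and the peptide loading chains RT1-DMb (-0.78) and RT1-DMa (-0.54) overlapped. Other probe sets gave -0.49 for Ciita, -0.84 for RT1-Db1, -0.15 for RT1-Bb, and -0.44, -0.38 and -0.30 for RT1-Ba. After a further quantile normalization 3 of 8 were separated, against 4.75% of all genes, and RT1-DMa was -0.30 without day 15 rep 1. The median was -0.76, or -0.58 without day 25 rep 1, and -0.51 in the livers, where 0 of 8 passed the test.

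Genes of the cells that present antigen and answer it had mostly lower means as well. All 12 dendritic cell genes had lower means at day 25 and 3 were separated, against 6.48% of all genes. They were Ccl17 (-0.59), a chemokine for T cells, Ch25h (-0.60), which hydroxylates cholesterol, and Itgae (-0.32). Ccl17, Ch25h, Clec9a, P2ry10 and Gcsam had been singled out earlier on the same day 25 arrays. Their values here, and the separated counts of the lists that hold them, are therefore no independent evidence. Clec9a, by which type 1 dendritic cells sense dead cells, read 5.93, 5.88 and 5.16 and then 4.65, 4.87 and 5.27, a difference of -0.73 with overlap of the rep 3 arrays. The median of the list was -0.33, and leaving out day 25 rep 3 gave -0.51. Of the 12 genes 5, Clec9a and Itgae among them, had a mean under the median of all values. Of the 26 T and NK cell genes 12 were separated with day 25 lower, against 6.48% of all genes, and 1 with day 25 higher, against 5.5%. In this list 15 had a mean under the median of all values, 6.02, where the array resolves little. Cd3d, a chain of the T cell receptor complex, read 6.15, 6.47 and 5.84 and then 5.29, 5.53 and 5.74 (-0.64, SE 0.20). Its partner Cd3e (-0.61) and the granzyme Gzmm (-0.67) were separated too, while Cd4, the helper cell coreceptor, overlapped at -0.44, or -0.13 without day 25 rep 1. The median of the T and NK list was -0.25, with -0.14 without day 25 rep 1. Of 10 B and plasma cell genes 3 were separated with day 25 lower, again against 6.48% of all genes. These were P2ry10, a lysophospholipid receptor gene of lymphocytes (-0.60, SE 0.12, limma adjusted p = 0.36), Gcsam (-0.65) and Mzb1 (-0.29). The B and plasma cell median was -0.20, or -0.04 without day 25 rep 1, and 6 of the 10 genes had a mean under the median of all values.

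All but Pgbd5 of the 7 genes singled out earlier are named above. The 7 came from a reading of day 25 against day 10, a comparison that uses the same day 25 arrays. In that comparison 8 genes passed the test (0.0563%), against 0 (0%) between day 15 and day 10. Clec9a, Ccl17 and Ch25h differed between day 25 and day 10 by -1.52, -1.25 and -1.65 (adjusted p = 0.011 each, limma), against -0.73, -0.59 and -0.60 from day 15. P2ry10 differed by -0.72 and Gcsam, a signalling adaptor of germinal centre B cells, by -1.15 (adjusted p = 0.026 and 0.031, limma), against -0.60 and -0.65 from day 15. Cndp1 differed by 3.45 and the transposase-derived gene Pgbd5 by 1.55 (adjusted p = 0.026 and 0.049, limma), against 2.49 and 0.57 from day 15.

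The chemokine with the largest separated difference was Cxcl13, which attracts B cells. It read 10.12, 9.32 and 8.79 at day 15 and 7.64, 6.83 and 8.67 at day 25, so that day 25 rep 3 lay just below day 15 rep 3, and the difference was -1.70 (SE 0.49, limma adjusted p = 0.50). The day 10 tumours averaged 7.85, below the day 15 tumours. Of the 23 members of the chemokine list it was the only separated one (4.35%, below the 6.48% of all genes). Cxcl10 and Ccl17, counted in other lists above, were separated downwards too. The list's median was -0.20, or 0.01 without day 25 rep 1. Other genes on the lower side were Aspn, a small proteoglycan of connective tissue (-1.82), Lrrc32, which holds latent TGF-beta at the cell surface (-1.05), Fkbp7, a folding enzyme of the endoplasmic reticulum (-1.08), and Tagap, a GTPase activator of T cells (-1.12). Fxyd4, a regulator of the sodium pump, read 8.40, 8.43 and 8.76 and then 7.47, 7.64 and 7.45, tight in both groups (-1.01, SE 0.25, adjusted p = 0.46, limma). Its liver difference was -0.01. Cyp3a18, a steroid and drug oxidising enzyme of hepatocytes, read 8.03, 10.31 and 7.74 and then 4.15, 6.71 and 7.53, and its order within each day was that of the hepatocyte signal given above. Its difference was -2.56, or -1.54 with the hepatocyte signal as a covariate and -1.57 without day 25 rep 1. In the livers themselves Cyp3a18 differed by -1.86 (adjusted p = 0.19, limma).

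Of 11 neutrophil and interleukin-1 genes measured 8 had higher means at day 25. S100a8, a calcium-binding protein abundant in neutrophils, read 11.09, 9.89 and 11.19 at day 15 and 12.46, 12.38 and 12.07 at day 25. The day 25 tumours lay close together above all day 15 tumours, and the difference of 1.58 was 2.99-fold (SE 0.68, limma adjusted p = 0.59). Its partner S100a9 (1.11, or 0.73 without day 15 rep 2) and the chemokine receptor Cxcr2 (0.73) were separated too, giving 3 of 11 members against 5.5% of all genes. The list's median was 0.73, with 0.52 without day 25 rep 1 and 0.44 when dim genes were left out. Il1r2, a decoy receptor for interleukin-1, differed by 0.89 with overlap (0.52 without day 25 rep 1), and Il1b, interleukin-1 beta itself, by -0.69 with overlap (-0.42 without day 25 rep 3). Il1b was picked after its values were seen.

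In the livers 4 of these 11 genes rose from day 15 to day 25, against 0.823% of all genes. S100a8 rose from 7.78 ± 1.59 to 11.31 ± 0.53 (mean log2 ± SD, n = 3, limma adjusted p = 0.013), and S100a9 rose by 2.87 (adjusted p = 0.0057, limma). Il1r2 rose by 3.00 (adjusted p = 0.00039, limma). The change in tumour minus the change in liver was -1.95 for S100a8 and -2.11 for Il1r2, with adjusted p of 0.57 and 0.16 (limma), so the liver's larger change did not pass the test of the difference.

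Red cell genes had higher means at day 25 in 5 of 6 cases. Alas2 read 6.44, 6.72 and 5.64 and then 7.99, 7.35 and 6.77, so the closest arrays of the 2 days were 6.72 and 6.77. Ahsp, the chaperone of alpha globin, differed by 0.61 (SE 0.14, limma adjusted p = 0.39) and Hbb, beta globin, by 1.11 with overlap. Of 6 red cell genes 3 were separated upwards, against 5.5% of all genes, the third being Hemgn, a nuclear protein of red cell precursors (0.21). Hemgn averaged 3.69 and then 3.90, and Ahsp 4.73 and then 5.34. Both lay under the median of all values, 6.02, as did 3 of the 6 genes in all, where the array resolves little. In the livers Alas2 differed by 1.23 and Hbb by 0.92, and 0 of the 6 passed the test there. Whether blood in the pieces took part was not tested.

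**Figure D3:**
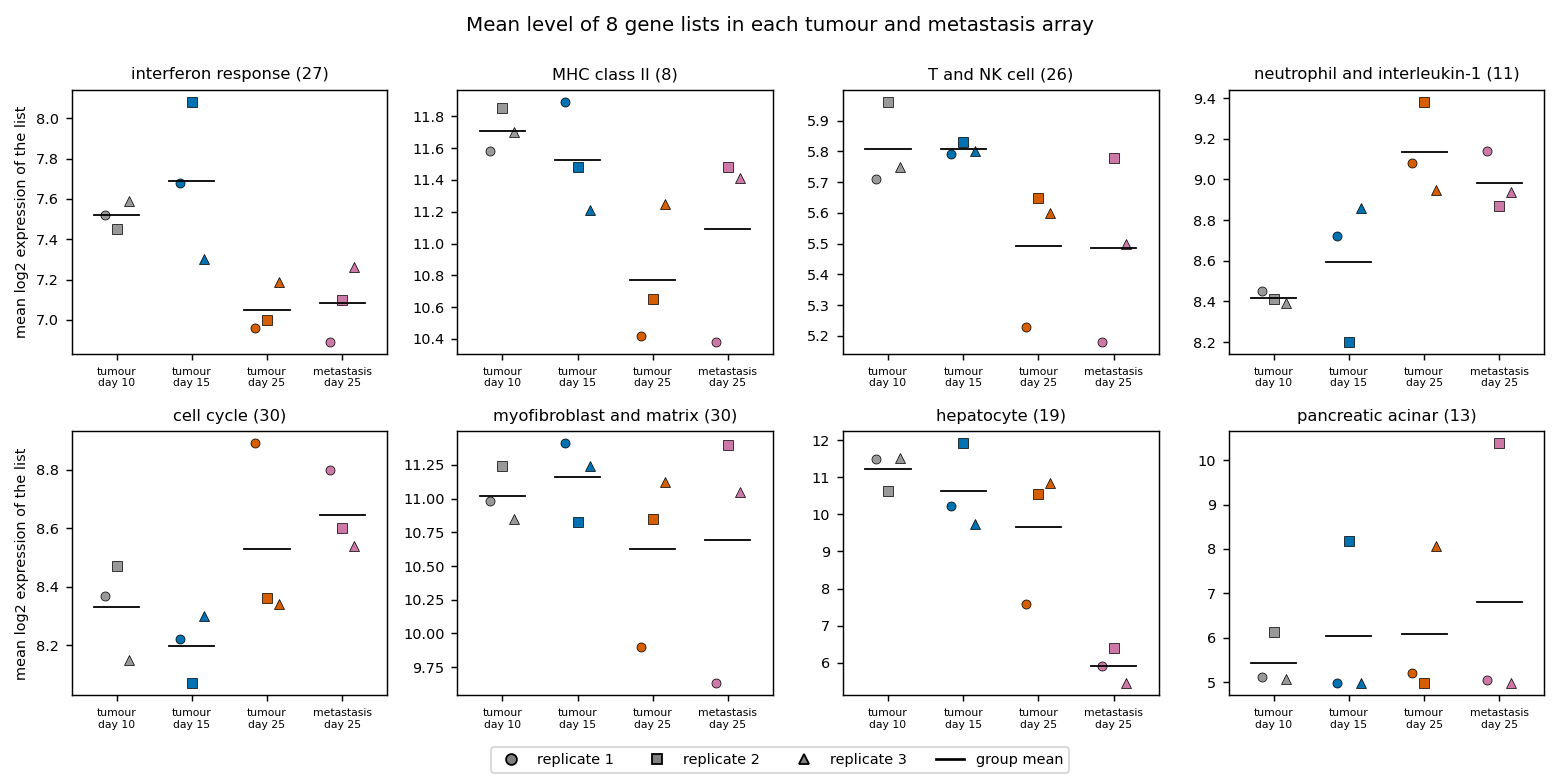
Mean log2 expression of the measured members of 8 gene lists in each tumour and metastasis array, with lines at the group means and symbols for the replicate number. Interferon and T and NK cell means were lower in all day 25 tumours than in any day 15 tumour, cell cycle and neutrophil means were higher, and the hepatocyte, myofibroblast and acinar panels show how far single arrays, day 25 rep 1 among them, lay from their groups.

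Cell cycle genes had small differences in one direction. Of 30 members 29 had higher means at day 25, 9 were separated upwards, against 5.5% of all genes, 0 were at least 2-fold higher and 0 passed the test. Mcm6, a subunit of the replicative helicase, read 8.76, 8.72 and 8.95 at day 15 and 9.87, 9.24 and 9.19 at day 25, a difference of 0.63 (SE 0.47, limma adjusted p = 0.70). This SE pools all 7 groups, and the SD of Mcm6 was 0.12 and 0.38 in these tumours but 0.82 and 1.27 in the livers of those days. Without day 25 rep 1 the Mcm6 difference was 0.41. Mcm2 of the same helicase (0.56, or 0.36 without that array) and Tyms, which makes thymidylate for DNA (0.47), followed. Mcm4, Mcm5, the thymidine kinase Tk1, the polymerase clamp Pcna, the spindle motor Kif11 and the mitotic regulator Birc5 made up the 9, at 0.28 to 0.45. Day 25 rep 1 was the highest array of the 6 for the list mean, 8.89, against 8.36 and 8.34 in the other day 25 tumours and 8.07 to 8.30 at day 15. The list's median was 0.34, or 0.15 without that array and 0.19 with the hepatocyte signal as a covariate, and -0.25 in the livers. In the metastases the list mean was 8.54 to 8.80.

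Promoter windows of the 3 leading members follow, read as above, with capitals marking matches to the E2F string TTTNGCGC or GCGCNAAA; in Mcm6 and Mcm2 a match on each strand overlaps the other. Mcm6 lies at chr13:42404303-42404602, Mcm2 at chr4:122918045-122918344 and Tyms at chr9:120776034-120776333, all on the minus strand.
Mcm6: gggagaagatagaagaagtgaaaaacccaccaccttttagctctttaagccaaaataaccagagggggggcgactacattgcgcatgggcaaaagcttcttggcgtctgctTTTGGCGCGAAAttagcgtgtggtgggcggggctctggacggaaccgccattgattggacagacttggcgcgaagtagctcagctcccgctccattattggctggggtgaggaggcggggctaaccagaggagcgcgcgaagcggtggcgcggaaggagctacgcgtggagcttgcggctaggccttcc
Mcm2: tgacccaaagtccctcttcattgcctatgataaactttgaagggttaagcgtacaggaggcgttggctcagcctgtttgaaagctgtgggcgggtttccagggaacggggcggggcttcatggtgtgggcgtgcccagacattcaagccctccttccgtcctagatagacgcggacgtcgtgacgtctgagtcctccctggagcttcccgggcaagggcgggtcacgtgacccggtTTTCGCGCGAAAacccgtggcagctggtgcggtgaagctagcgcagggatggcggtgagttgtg
Tyms: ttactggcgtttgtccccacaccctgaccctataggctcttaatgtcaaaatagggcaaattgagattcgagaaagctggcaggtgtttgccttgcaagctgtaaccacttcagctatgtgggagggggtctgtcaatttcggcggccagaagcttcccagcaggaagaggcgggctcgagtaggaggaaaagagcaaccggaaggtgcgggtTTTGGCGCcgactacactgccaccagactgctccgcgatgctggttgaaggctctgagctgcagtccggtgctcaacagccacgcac
A match was found in 7 of the 24 cell cycle windows (29.2%) and in 430 of all 33469 windows (1.28%). It was in 4 of 8 windows of separated members and in 3 of 16 of the others.

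Stromal genes had lower means at day 25 in 27 of 30 cases, and several arrays moved their values. Thy1, a surface glycoprotein of fibroblasts, read 9.26, 8.62 and 8.75 at day 15 and 6.58, 8.05 and 8.30 at day 25, a difference of -1.23 that was -0.70 without day 25 rep 1. The collagen VI chain Col6a2 (-1.02) and the microfibril protein Fbn1 (-0.96) were the other separated members of 30, and without that array they were -0.51 and -0.48. Second probe sets gave -0.29 for Col6a2, -0.59 for Thy1 and -0.87 for Fbn1. The 3 separated members made up 10.0% of the list, against 6.48% of all genes. Without day 15 rep 2 there were 18 (all genes 11.9%), without day 25 rep 3 there were 10 (15.7%), and without both arrays that carried acinar transcripts there were 23 (21.1%). Col3a1, the collagen with the highest signal in the list, was 14.16, 13.87 and 14.08 and then 12.92, 13.89 and 14.01, so only day 25 rep 1 was low. The median of the list was -0.49, or -0.12 without day 25 rep 1, and without the acinar pair it was -0.86. Leaving out that pair keeps only reps 1 and 2 of day 25, so day 25 rep 1 weighs more there. The list mean was 9.90 in day 25 rep 1 and 10.85 in day 25 rep 2. Among TGF-beta and mesenchymal genes 3 of 20 were separated downwards, against 6.48% of all genes, namely Tgfbi (-0.89, or -0.43 without day 25 rep 1), the receptor Tgfbr1 (-0.47, or -0.29 without day 15 rep 1) and the repressor Zeb1 (-0.47). The matricellular Ccn1 (0.63) was separated upwards, and 1 of 20 is close to the 5.5% of all genes. A second probe set for Tgfbr1 had the opposite sign, 0.33. Kdr, the main VEGF receptor of endothelium, was -1.04, with 6.24 in day 25 rep 1 against 8.61 to 9.01 elsewhere; without that array it was -0.25, and its second probe set gave 0.07.

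The hepatocyte difference rested on single arrays, above all day 25 rep 1. All 19 genes had lower means at day 25, 0 were separated, and their median was -0.88, or 0.01 without day 25 rep 1. The list mean was 10.22, 11.91 and 9.73 at day 15 and 7.58, 10.54 and 10.84 at day 25, so day 15 rep 2 was the highest. Alb, albumin, read 14.37, 14.59 and 14.17 and then 11.68, 14.29 and 14.38, in which only day 25 rep 1 was low. The median of 18 acute phase genes was -0.64 with all arrays and 0.46 without that one.

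Macrophage genes had lower means at day 25 in 15 of 18 cases and higher means in 3. Ms4a7, a membrane protein of resident macrophages, read 8.91, 8.35 and 8.18 and then 6.15, 7.00 and 8.10 (-1.39, SE 0.45), and Cd163, a haemoglobin scavenger receptor, read 6.38, 6.96 and 7.06 and then 7.76, 7.43 and 7.27 (0.68, SE 0.30). They were the 2 separated members of 18, in opposite directions, and the median was -0.31, with -0.11 without day 15 rep 1 and -0.21 without day 25 rep 1. Separated with day 25 lower were 1 of 18 with all arrays, against 6.48% of all genes, 9 without day 25 rep 3 (all genes 15.7%) and 7 without day 15 rep 3 (15.4%). Lyz2, lysozyme, overlapped at -0.21. Of 10 mast cell genes 2 were separated downwards, against 6.48% of all genes, the proteases Cma1 (-1.02) and Mcpt1 (-0.65), which were -0.62 and -0.37 without day 15 rep 2. The mast cell median was -0.06, and 9 of the 10 genes had a mean under the median of all values.

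ErbB receptors and ligands had 2 members separated upwards and 2 downwards of 15, against 5.5% and 6.48% of all genes. Erbb3, the partner of Erbb2 that lacks a strong kinase of its own, was separated upwards at 0.36 (SE 0.13, limma adjusted p = 0.54), as was the ligand Btc (0.74, or 0.39 without day 25 rep 1). Egfr was separated downwards (-0.97), with 6.71 in day 25 rep 1 against 8.02 and 8.17 in the others. Its other probe sets gave -0.80 and -0.21. Lrig1, a feedback inhibitor of these receptors, was separated downwards too (-0.47), and without day 25 rep 1 Egfr was -0.50 and Lrig1 -0.31. The median of the 15 genes was -0.01. Fosl1, a growth-induced member of the AP-1 family, was separated upwards (0.99, or 0.57 without day 25 rep 1) and Egr2 downwards (-0.45) among 17 immediate early genes. Each made up 5.88% of the list, close to the 5.5% and 6.48% of all genes. A second probe set for Egr2 gave -0.06. Npas2 (-0.75, or -0.49 without day 25 rep 1) and Bmal1 (-0.31), partners in the circadian activator, were separated downwards among 14 clock genes (14.3%, against 6.48% of all genes). In the livers Npas2 fell by 1.88 (adjusted p = 0.0067, limma). The time of day of collection was not given in the sources used here.

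Several genes varied more between tumours of 1 day than between the days. Ptgs2, the inducible cyclooxygenase, read 6.03, 5.92 and 11.43 at day 15 and 6.19, 10.66 and 5.64 at day 25, with 1 high array on each day. Interleukin-6, Il6, was high in the same pair of arrays, at 9.00 in day 15 rep 3 and 8.39 in day 25 rep 2, against 5.73 to 6.05 in the rest. The chemokine Ccl3 read 7.70, 7.13 and 10.74 and then 11.32, 11.38 and 7.13. Hk2, a hexokinase, read 6.40, 5.99 and 7.36 and then 8.27, 7.91 and 6.24, and Adm, adrenomedullin, read 6.59, 6.50 and 8.08 and then 8.68, 8.47 and 6.53, both highest in day 25 rep 1. These 5 genes were picked after their values were seen. Of 29 hypoxia and glycolysis genes 0 were separated, and the median was 0.08, or -0.08 without day 25 rep 1.

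The remaining lists had few separated members. Of 16 amino acid uptake and stress genes 14 had higher means at day 25 and 1 was separated upwards (6.25%, close to the 5.5% of all genes). It was Chac1, which breaks down glutathione, at 7.22, 7.36 and 7.21 and then 8.63, 7.82 and 7.51. Its difference was 0.72 (SE 0.53), or 0.40 without day 25 rep 1, the highest of these 6 arrays. The list's median of 0.29 became 0.09 without that array. The SE pools all 7 groups, and the SD of Chac1 was 0.08 and 0.58 in these tumours but 0.50 and 1.11 in the livers of those days. Krt20, a keratin of gut epithelium, overlapped at 0.74 (SE 0.31), or 0.46 without day 25 rep 1. Of 20 bile acid and drug handling genes, mostly hepatocyte enzymes and carriers, 9 were at least 2-fold lower, against 1.6% of all genes. Separated downwards was 1 (5.0%, below the 6.48% of all genes), and the median was -0.77, or -0.20 without day 25 rep 1. Among the 13 prostaglandin genes 1 was separated upwards (7.69%, against 5.5% of all genes), and the median was -0.01. The 14 cholesterol synthesis, 8 liver sinusoid, 11 adipocyte, 11 muscle, 5 mesothelium and 13 acinar genes measured included 0 separated members, with medians from -0.15 to 0.13. The acinar median, 0.10 over all arrays, ranged from -0.98 to 1.06 as single arrays were left out. The cholesterol genes had a median of 0.12 in the tumours, or -0.06 without day 25 rep 1, whereas in the livers 7 of the 14 fell from day 15 to day 25 in the limma fit, against 1.38% of all genes, and the median was -1.14.

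**Figure D4:**
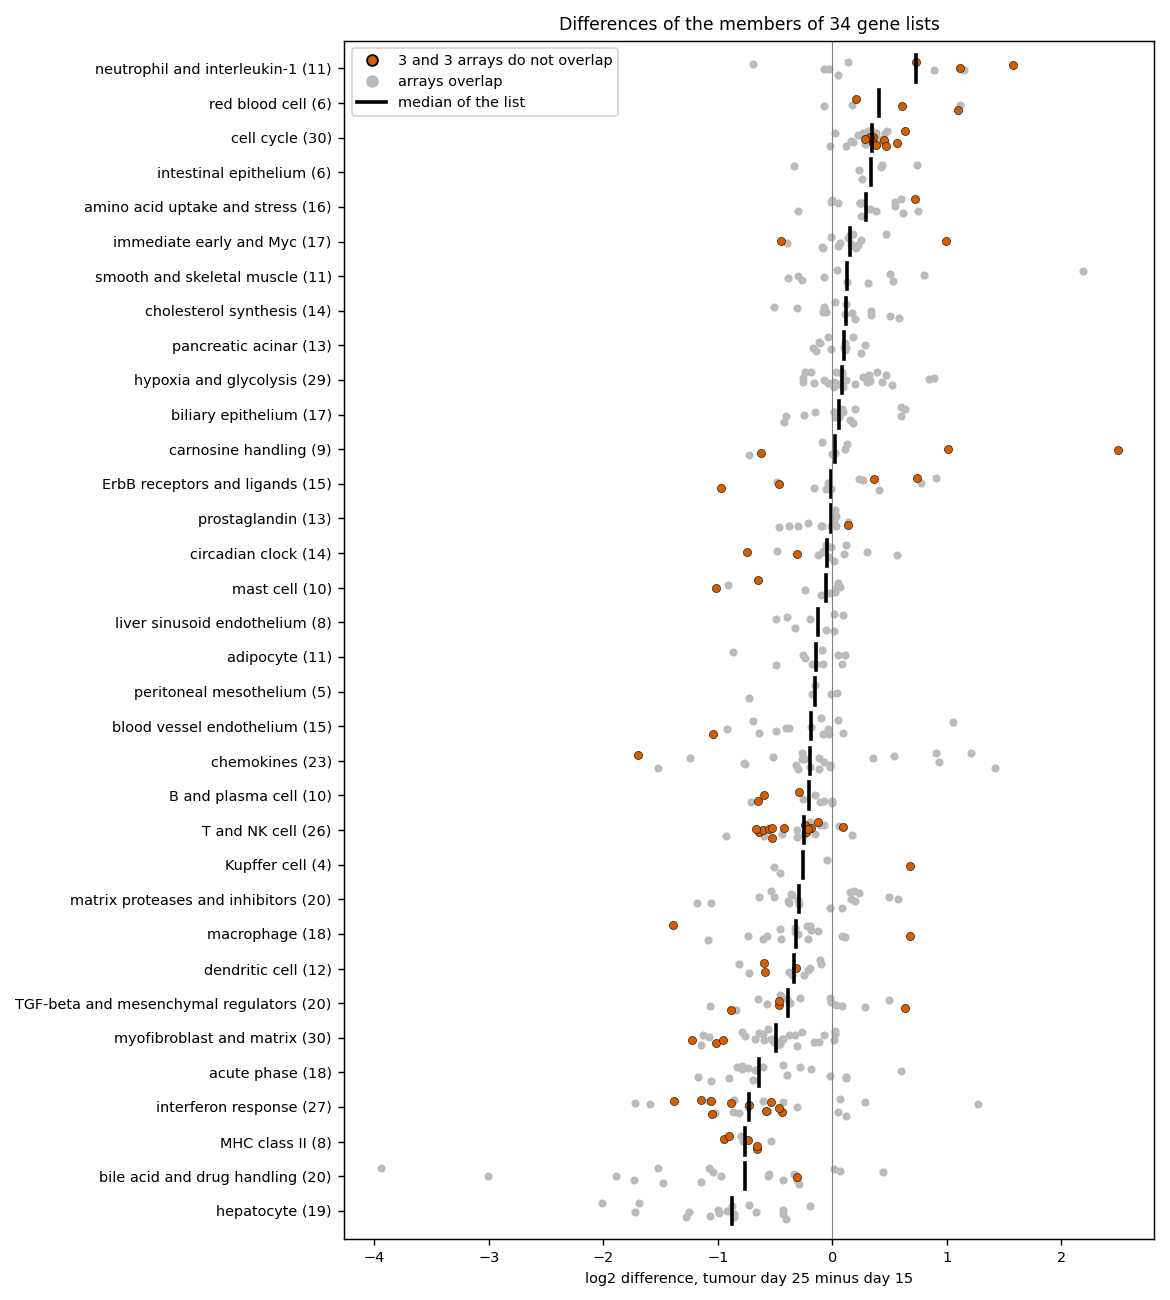
Each point is a measured member of 1 of 34 gene lists (number of members in brackets), placed at its log2 difference of day 25 minus day 15 tumours; orange points are separated, grey points overlap and black bars are list medians. The neutrophil median lies at 0.73 and the MHC class II and interferon medians at -0.76 and -0.73, while the hepatocyte list has the lowest median and no separated member.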

How the data were processed

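RNA from snap-frozen tissue was hybridised to 1-colour Affymetrix arrays, and the authors deposited log2 values, made with RMA per the submitters' processing notes. RMA adjusts the background, quantile-normalizes the arrays and summarises probes. Array medians were 5.98 to 6.06, so differences are relative to the average gene. Files with probe intensities were not used here, and for arrays the number of samples limits the precision. The table held 31099 probe sets, of which 20832 had 1 gene symbol in the platform annotation, 436 several and 9831 none; for each gene the set with the highest mean over 21 arrays was kept (14218 genes). No genome build was given in the sources used here.

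All 21 arrays were fitted as 7 group means with limma 3.58.1 in R 4.3.3 (lmFit, eBayes, 14 residual degrees of freedom), with Benjamini-Hochberg adjustment over 14218 genes at 0.05. Replicates are different rats. The fitting code was run on simulated data with known changes, which checks the code and not the results given here. Named genes were, per direction, the 10 smallest p among separated genes at least 2-fold different; of each list, up to 3 separated members with the largest differences and the member with the highest mean; and 8 fixed genes. Genes with provisional names were left out, and other genes named were picked after their values were seen. The comparison, the 34 gene lists (525 of 587 members measured) and the fixed genes were chosen with earlier results of these data known, so lists are described by counts and medians without a test. Alternatives were the 6 or 9 tumour arrays alone, blocks, scaling, a filter on dim genes, other probe set rules, array weights, a hepatocyte covariate and leaving out arrays.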

Additional observations from a re-analysis of the deposited data

How the results depend on the processing

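No gene passed an adjusted p of 0.05 in 16 of the 18 alternatives. Array weights gave 3989 called genes (5709 at an unadjusted p under 0.05), resting on weights of 6.19 for day 25 rep 2 and 4.87 for day 15 rep 1 against 0.26 to 0.68 for the other 4 arrays. Leaving out each array in turn gave 0 to 7 called genes and 481 to 2217 at an unadjusted p under 0.05; the 7 came without day 15 rep 3, the lowest unadjusted count without day 25 rep 1 (481) and the highest without day 25 rep 3 (2217). With the replicate number as a block, 413 genes had an unadjusted p under 0.05 and 0 passed; same-numbered arrays deviated from their group means with correlations of 0.171, 0.147 and -0.675, so the numbers were not taken as pairs. Of 2104 gene values under alternatives (118 genes), 2000 kept their direction and were not called, 95 became called (93 with array weights) and 9 reversed. Il1b became 0.01 with array weights. Ptgs2 and Il6, which ranged over the left-out arrays from -1.88 and -1.02 without day 25 rep 2, became 3.45 and 1.98 with array weights, 1.52 and 0.84 without day 15 rep 3, 0.36 and 0.25 without day 25 rep 1, and 0.63 and 0.20 without day 25 rep 3. Of 612 list medians 602 moved by less than the spread between replicates, and the neutrophil median was 0.44 without dim genes. That count does not show stable medians, since leaving out day 25 rep 1 moved the hepatocyte median from -0.88 to 0.01. In the same fit the acute phase median went from -0.64 to 0.46 and the myofibroblast median from -0.49 to -0.12. The cause of these changes was not tested.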
